A study of Mus musculus with 24 samples.

Results

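The synaptic vesicle release machinery was followed through hypothalamic RNA-sequencing of overfed and control mice. Its 38 genes were taken by symbol, matched through their Ensembl identifiers, from the 55471 genes counted: SNAREs, synaptotagmins, vesicle proteins, active zone proteins and vesicular transporters. All 38 passed the expression filter, which left 18992 genes to test. Wild-type male C57BL/6J mice, 18 weeks old and with free access to chow, received through a gastric catheter either a liquid diet enriched with sucrose (experimental overfeeding, ExpOF) or sterile water at matched flow rates (Control). Hypothalami were collected on day 14, the last day of overfeeding (d14), or 3 days later, after both groups had received water only (d14+3). Each of the 4 groups held 6 mice, 1 library per mouse, with 3 mice per group from a July and 3 from a September cohort, and RNA was extracted in 2 rounds. Control d14 replicate 4, taken to be the mouse the study left out for poor RNA quality although the labels give its RNA integrity number as 9.8, is not part of the values below unless named, so that Control d14 holds 5 mice and all groups together 23.

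At a presynaptic terminal, neurotransmitter is pumped into vesicles by vesicular transporters, vesicles are tethered and primed at the active zone, and the SNARE proteins of vesicle and plasma membrane zip together to fuse them. Synaptotagmins sense the calcium that enters with an action potential and trigger the fusion, complexins clamp and assist it, and NSF with SNAP proteins takes the spent SNARE complexes apart. In the hypothalamus the same machinery releases glutamate and GABA, and related priming factors serve the dense-core vesicles that carry neuropeptides.

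The libraries held between 8928182 and 34848437 counts assigned to genes, and the 38 genes took between 1.26% and 1.49% of them. The lowest count of any member in a library used was 70 for Slc17a7, in Control d14 replicate 1, and 130 for Syn3. The RNA integrity number in the labels averaged 9.20 ± 0.860 (SD, n = 5) in Control d14, 9.75 ± 0.138 (SD, n = 6) in ExpOF d14, 8.62 ± 1.09 (SD, n = 6) in Control d14+3 and 9.43 ± 0.450 (SD, n = 6) in ExpOF d14+3. The hypothalamic markers were present in every library: the summed level of 14 of them ran from 787 to 1397 CPM, counts scaled to a common library total, in Control d14, 754 to 1012 in ExpOF d14, 639 to 952 in Control d14+3 and 568 to 810 in ExpOF d14+3. Markers of the neighbouring thalamus were present as well and differed by day, as given with the day comparison. In bulk tissue, fewer cells of a type and less RNA per cell cannot be told apart.

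The stretch upstream of the annotated start was read from RefSeq (GRCm38.p6) for 31 of the 38 genes, 39 promoters in all. No entry was used for Snap25, Vamp2, Rims2, Syn3, Syt4, Syt5 and Syt7. Below are the 250 bases before the start of Syn1, which holds matches to 2 of the 4 motifs searched, and of Slc17a7, Slc17a6 and Sv2b, 3 vesicle genes described in the day comparison. RefSeq lists 2 starts for Slc17a6 and 4 for Sv2b, and the one nearest the 5′ end of the deposited gene is shown. They are written 5′ to 3′ on the strand of the gene, with motif matches in capitals.
Syn1, chrX:20920919-20921168, minus strand: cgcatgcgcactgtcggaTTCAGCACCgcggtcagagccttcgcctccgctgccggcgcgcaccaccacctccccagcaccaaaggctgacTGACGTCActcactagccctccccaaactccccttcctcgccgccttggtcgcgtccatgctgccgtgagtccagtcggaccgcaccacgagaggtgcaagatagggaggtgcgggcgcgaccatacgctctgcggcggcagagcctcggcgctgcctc
Slc17a7, chr7:45163671-45163920, plus strand: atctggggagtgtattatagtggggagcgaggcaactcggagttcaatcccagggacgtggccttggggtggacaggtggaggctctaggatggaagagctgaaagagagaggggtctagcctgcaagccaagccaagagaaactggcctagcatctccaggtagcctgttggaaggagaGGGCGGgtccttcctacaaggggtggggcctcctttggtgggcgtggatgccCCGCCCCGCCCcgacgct
Slc17a6, chr7:51621580-51621829, plus strand: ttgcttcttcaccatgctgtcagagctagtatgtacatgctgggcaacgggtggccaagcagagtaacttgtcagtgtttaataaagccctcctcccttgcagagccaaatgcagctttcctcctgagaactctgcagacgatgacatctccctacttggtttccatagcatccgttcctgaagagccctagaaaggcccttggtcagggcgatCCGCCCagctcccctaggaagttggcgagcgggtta
Sv2b, chr7:75309263-75309512, minus strand: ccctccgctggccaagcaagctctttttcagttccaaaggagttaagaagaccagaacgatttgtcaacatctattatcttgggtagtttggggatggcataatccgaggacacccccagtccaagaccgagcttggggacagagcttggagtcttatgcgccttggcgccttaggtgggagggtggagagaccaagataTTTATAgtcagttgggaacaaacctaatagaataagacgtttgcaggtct
The capitals in Syn1 mark TTCAGCACC, the left part of the site of the neuronal silencer REST, and the cAMP response element TGACGTCA. In Slc17a7 and Slc17a6 they mark the GC box GGGCGG or its reverse complement, and in Sv2b the TATA box TATAAA on the opposite strand. The GC box lay at 1 of the 2 Slc17a6 starts and TATAAA at 2 of the 4 Sv2b starts. All motifs were searched on both strands, and neighbouring GC boxes can overlap. A GC box lay in 59% of the members' promoters, from 22 genes, against 32.7% of all 32851 promoters of the same length, and the members' median GC content was 60.8% against 52.4%. TATAAA lay in 7.69% (Rab3b and Sv2b) against 12.4% of all, TTCAGCACC in 2.56% (Syn1 alone) against 0.301%, and TGACGTCA in 2.56% (Syn1 alone) against 1.55%. These matches describe letters in a window and no binding was measured.

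Per kilobase of exon, the genes spanned from 235 CPM for Rab3a, the main GTPase of synaptic vesicles, to 1.05 CPM for Syn3, the least expressed synapsin. The vesicle SNARE Vamp2 (230 CPM per kb), the plasma membrane SNARE Snap25 (207), complexin 1 (Cplx1, 190), Syt11 (184), the vesicle glycoprotein Sv2a (182) and synaptophysin (Syp, 178) followed. The means of these first 7 genes lay close together, and the ranges of neighbours over the 23 mice overlapped. Scaffolds and priming factors of the active zone lay lower, from 16.8 CPM per kb for Unc13a to 1.97 for Unc13b. Among the transporters that load vesicles, Slc17a6 (VGLUT2, glutamate) stood at 61.4 CPM per kb, Slc32a1 (VGAT, GABA and glycine) at 44.2 and Slc17a7 (VGLUT1, the glutamate transporter typical of cortex) at 4.91. Slc17a7 had the widest relative range of all members, from 3.26 to 81.1 CPM.

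**Figure D1:**
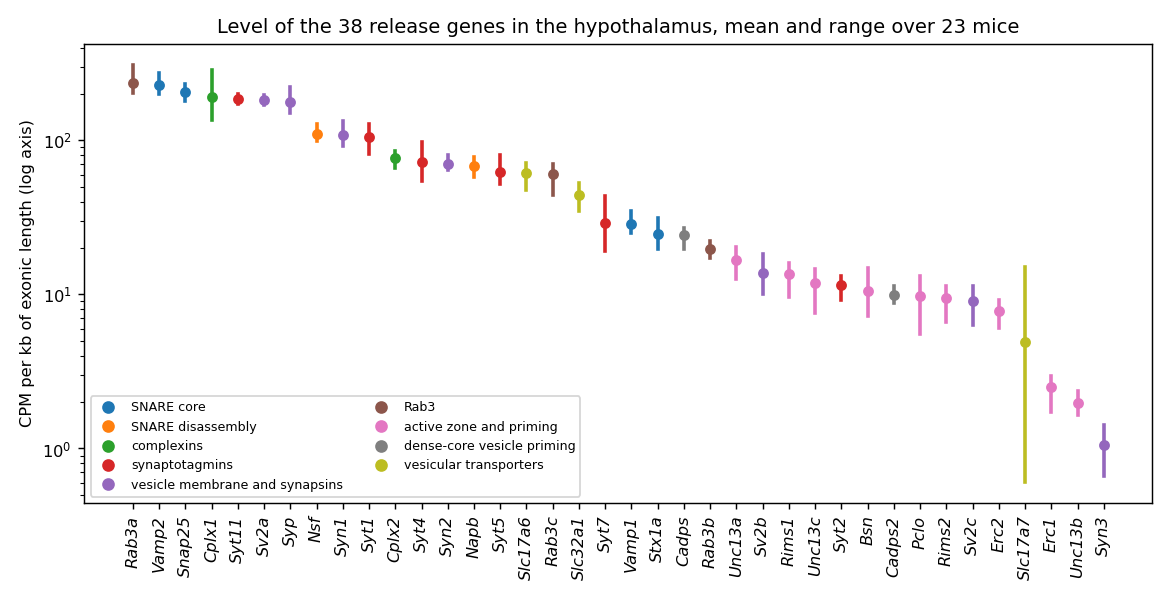
Level of each of the 38 genes as CPM per kb of exonic length on a log axis, with the mean (point) and the lowest to highest of 23 mice (line), coloured by role. Rab3a (235) to Syn3 (1.05) are ordered by mean, and the line of Slc17a7 is by far the longest.

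With overfeeding on d14, no member passed the threshold. edgeR's quasi-likelihood test called 0 of the 38 genes at an adjusted p under 0.05, against 0.00527% of all genes tested, and the smallest adjusted p was 0.135. DESeq2's Wald test also called 0 members, and 165 genes in all. At an unadjusted p under 0.05 there were 15 members, while 26.7% of all genes met the same limit. Of these, 12 lay higher in overfed mice (13.1% of all genes) and 3 lower (13.6% of all genes). The median log2 fold change of the 38 was 0.068 against −0.021 over all genes tested. All values below are in CPM. The ± beside a log2 fold change or log2 difference is an SE, its absolute value divided by the square root of edgeR's F. The values of Control d14 are listed in the order of replicates 1, 2, 3, 5 and 6.

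The membrane fusion core comprised Snap25, Stx1a, Vamp1 and Vamp2, and on d14 its median log2 fold change was −0.129, with 0 of 4 genes at an unadjusted p under 0.05. Vamp2 (chr11:69088490-69092384, plus strand), the vesicle SNARE cut by tetanus toxin, had 765, 961, 827, 972 and 933 CPM in Control d14 and 765 to 901 CPM in ExpOF d14 (median 792). Replicate 1 of the control mice lay at the overfed minimum and the other 4 above the overfed median, so that the groups overlapped (log2 fold change −0.14 ± 0.069, adjusted p = 0.191). On d14+3 it ranged from 845 to 1048 CPM in Control d14+3 (median 909) and from 783 to 980.0 CPM in ExpOF d14+3 (median 871), again overlapping (log2 fold change −0.097 ± 0.066, adjusted p = 0.768). The plasma membrane SNARE Snap25, at 1216 to 1572 CPM over the 23 mice, had a log2 fold change of 0.064 ± 0.051 on d14 and 0.0087 ± 0.049 on d14+3, its syntaxin partner Stx1a (52.8 to 83.6 CPM) −0.19 ± 0.12 on d14 and −0.0074 ± 0.11 on d14+3, and the second vesicle SNARE Vamp1 (254 to 352 CPM) −0.12 ± 0.067 on d14 and 0.018 ± 0.064 on d14+3. For Snap25, Stx1a and Vamp1 each of these differences was smaller than 2 times its SE.

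For disassembly of the complexes, the ATPase gene Nsf (chr11:103821782-103954056, minus strand) and the SNAP gene Napb (chr2:148693985-148732467, minus strand) kept narrow ranges. Napb had 491, 405, 485, 436 and 431 CPM in Control d14 and 464 to 507 CPM in ExpOF d14 (median 488). The overfed mice lay within the upper part of the control range or just above it (log2 fold change 0.11 ± 0.065, adjusted p = 0.254). Nsf on d14+3 ranged from 928 to 991 CPM in Control d14+3 (median 939) and from 886 to 1073 CPM in ExpOF d14+3 (median 940.1), with almost the same medians (log2 fold change 0.017 ± 0.046, adjusted p = 0.927).

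Complexins bind the assembled SNARE complex. Cplx1 (chr5:108518554-108550024, minus strand) had 297, 379, 337, 543 and 358 CPM in Control d14 and 300.2 to 389 CPM in ExpOF d14 (median 345). Replicate 5 stood alone among the controls, and the remaining values overlapped (log2 fold change −0.16 ± 0.15, adjusted p = 0.48). That library also held the highest summed level of choroid plexus markers among the 23 libraries (3049 CPM, against 35.6 in the lowest Control d14 library). Their part in the value was not tested. It also held the highest summed level of thalamic markers among the d14 mice used (567 CPM). Cplx1 ran with that sum over the 23 mice and within each day, as given with the day comparison. With the thalamic sum as a covariate, added after values were seen, the log2 fold change was −0.096 (adjusted p = 0.492). Without replicate 5 it was 0.0017. On d14+3 Cplx1 spread widely in both groups, from 379.7 to 627 CPM in Control d14+3 (median 451) and from 354 to 553 CPM in ExpOF d14+3 (median 429.5), for a log2 value of −0.13 ± 0.14, adjusted p = 0.807. The other complexin, Cplx2, stayed between 326 and 418 CPM in all groups, with 0.026 ± 0.063 on d14 and 0.0022 ± 0.06 on d14+3.

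Among the 6 synaptotagmins, 3 lay above 0 and 3 below on d14. Syt1 and Syt2 are the fast calcium sensors of release, Syt7 is the slow, high-affinity sensor, Syt5 is another calcium-binding member, and Syt4 and Syt11 are atypical members whose calcium binding is impaired. Syt5 (chr7:4539765-4547541, minus strand) had 133, 189.7, 162, 170.1 and 191 CPM in Control d14 and 138 to 148 CPM in ExpOF d14 (median 142). The overfed mice formed a tight group under 4 of the 5 controls, replicate 1 lying below them (log2 fold change −0.24 ± 0.082, adjusted p = 0.135, and two-sided exact permutation test of mean CPM p = 0.0346). On d14+3 Syt5 ranged from 134 to 177 CPM in Control d14+3 (median 139) and from 125 to 154 CPM in ExpOF d14+3 (median 134), so the groups overlapped (log2 fold change −0.11 ± 0.078, adjusted p = 0.775).

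Syt4, a synaptotagmin of dense-core vesicles (chr18:31437808-31447406, minus strand), was the only member whose d14 groups did not overlap. Of all 18992 genes tested, 293 lay wholly higher in overfed mice in this way (1.54%) and 182 wholly lower. Its values were 272, 245, 258, 227 and 264 CPM in Control d14 and 275 to 345 CPM in ExpOF d14 (median 307). The log2 fold change was 0.28 ± 0.11 with adjusted p = 0.145. The two-sided exact permutation test of mean CPM gave p = 0.00433, the smallest value it can give for groups of these sizes. Groups without overlap always reach that value, so the test adds nothing to the absence of overlap. The gene was singled out after its values were seen. On d14+3 the ranges overlapped, from 213 to 325 CPM in Control d14+3 (median 284) and from 248 to 382 CPM in ExpOF d14+3 (median 271). An antisense gene shares 566 of its exonic bases. The fast sensor Syt1 had log2 fold changes of 0.16 ± 0.057 on d14 and 0.033 ± 0.054 on d14+3, Syt2 (70.0 to 101 CPM) 0.071 ± 0.069 on d14 and 0.064 ± 0.066 on d14+3, Syt7 −0.0099 ± 0.14 on d14 and −0.085 ± 0.13 on d14+3, and Syt11 (899 to 1039.6 CPM) −0.058 ± 0.043 on d14 and −0.044 ± 0.041 on d14+3.

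On the vesicle membrane, synaptophysin is an abundant membrane protein, synapsins tie vesicles into the reserve pool and SV2 proteins are transporter-like glycoproteins. Syp (chrX:7638471-7653256, plus strand) had 789, 1069, 892, 1124 and 1026 CPM in Control d14 and 786 to 904 CPM in ExpOF d14 (median 813). Control replicate 1 lay close to the lowest overfed mouse and replicates 2, 5 and 6 above all overfed mice (log2 fold change −0.25 ± 0.10, adjusted p = 0.147, exact permutation p = 0.0476). A gene on the opposite strand shares 875 exonic bases with Syp. Sv2c (chr13:95954594-96132577, minus strand), the SV2 isoform enriched in the basal forebrain and midbrain, ranged on d14+3 from 61.8 to 90.9 CPM in Control d14+3 (median 84.1) and from 63.3 to 101 CPM in ExpOF d14+3 (median 88.5), for a log2 value of 0.16 ± 0.12, adjusted p = 0.78. On d14 Sv2c had 101, 73.8, 92.2, 77.8 and 61.8 CPM in Control d14 and 86.5 to 109.9 CPM in ExpOF d14 (median 104), with 4 controls below or within the lower part of the overfed range (log2 fold change 0.29 ± 0.13, adjusted p = 0.16). Among the synapsins, Syn1 (302 to 442 CPM) had −0.045 ± 0.078 on d14 and 0.015 ± 0.075 on d14+3, Syn2 (451 to 566 CPM) 0.035 ± 0.049 on d14 and −0.0013 ± 0.046 on d14+3, and Syn3 (8.14 to 17.5 CPM), whose exons share 1733 bases with a gene on the opposite strand, 0.34 ± 0.17 on d14 and 0.17 ± 0.16 on d14+3. Sv2a (781 to 919 CPM), the isoform found on nearly all synaptic vesicles, had −0.0036 ± 0.044 on d14 and −0.047 ± 0.042 on d14+3, and Sv2b 0.086 ± 0.077 on d14 and −0.013 ± 0.073 on d14+3.

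Rab3 GTPases recruit vesicles to RIM proteins. Rab3a (chr8:70754679-70758677, plus strand) had 451, 619, 526, 623 and 591 CPM in Control d14 and 459.7 to 506 CPM in ExpOF d14 (median 466). As for Syt5, 4 controls lay above every overfed mouse and replicate 1 below all of them (log2 fold change −0.24 ± 0.093, adjusted p = 0.14, exact permutation p = 0.0346). On d14+3 it ranged from 491 to 688 CPM in Control d14+3 (median 519) and from 449 to 602 CPM in ExpOF d14+3 (median 491), for a log2 value of −0.16 ± 0.089, adjusted p = 0.744. Rab3c lay on the other side of 0 on d14, at 0.18 ± 0.07 (adjusted p = 0.14), and Rab3b at −0.056 ± 0.063 (adjusted p = 0.562).

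At the active zone, RIM proteins organise release sites, Munc13 proteins (Unc13a, Unc13b and Unc13c) prime vesicles, and bassoon (Bsn), piccolo (Pclo) and the ELKS proteins (Erc1 and Erc2) form the scaffold. All 9 genes had a d14 log2 fold change above 0, with a median of 0.249, and 7 of the 9 reached an unadjusted p under 0.05, against 26.7% of all genes (13.1% higher). Rims2 (chr15:39198261-39681940, plus strand) had 94.3, 68.4, 80.9, 78.6 and 80.7 CPM in Control d14 and 85 to 105 CPM in ExpOF d14 (median 97.4). Control replicate 1 stood among the overfed mice and the other 4 controls below them all (log2 fold change 0.26 ± 0.077, adjusted p = 0.135, exact permutation p = 0.00866). Pclo, with the largest d14 value among the members (0.48 ± 0.18, adjusted p = 0.139), had 281, 124, 194, 136 and 163 CPM in Control d14 and 209.8 to 276 CPM in ExpOF d14 (median 266). Here the highest of all d14 mice was control replicate 1, which was the highest Control d14 mouse for all 9 active zone genes, while replicate 2 was the lowest for 8 of them. Of the others, Rims1 (75.3 to 125 CPM) had log2 fold changes of 0.20 ± 0.072 on d14 and 0.05 ± 0.068 on d14+3, Unc13a (159 to 258 CPM) 0.18 ± 0.085 on d14 and 0.088 ± 0.081 on d14+3, and Unc13c (66.3 to 128 CPM) 0.37 ± 0.13 on d14 and 0.11 ± 0.12 on d14+3. The scaffold genes Bsn (115 to 235 CPM), Erc1 (28 to 47.9 CPM) and Erc2 (58.9 to 89.4 CPM) had 0.20 ± 0.11 on d14 and 0.056 ± 0.11 on d14+3, 0.28 ± 0.096 on d14 and 0.14 ± 0.091 on d14+3, and 0.25 ± 0.088 on d14 and 0.069 ± 0.083 on d14+3. On both days all 9 genes lay above 0, and on d14+3 the median was 0.088, against 0.046 and 0.079 over all genes in bins 9 and 10. Exons of Unc13a, Pclo, Erc1 and Erc2 overlap genes on the opposite strand by 106 bases (Erc2) to 1919 bases (Erc1).

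Unc13b (chr4:43058953-43264871, plus strand), the Munc13-2 gene, was the only member at an unadjusted p under 0.05 on d14+3, in 1 of 38 genes against 7.11% of all. It ranged from 39.5 to 44.5 CPM in Control d14+3 (median 41.6) and from 41.8 to 53.4 CPM in ExpOF d14+3 (median 49.8), and 5 of 6 overfed mice lay above the highest control (log2 fold change 0.22 ± 0.062, adjusted p = 0.344, exact permutation p = 0.00866). It is the longest member, and with the trend of fold changes by gene length removed its log2 value was 0.078 (adjusted p = 0.799) and 0 members had an unadjusted p under 0.05, against 8.16% of all genes. Within cohorts its log2 fold change was 0.24 (July) and 0.19 (September). On d14 it had 47.9, 37.3, 45.7, 44.8 and 41 CPM in Control d14 and 41.9 to 48.5 CPM in ExpOF d14 (median 45.1), which overlapped (log2 fold change 0.061 ± 0.065, adjusted p = 0.546).

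Cadps and Cadps2 encode CAPS proteins, which prime dense-core vesicles. Cadps (chr14:12372563-12823053, minus strand) had 389, 295, 355, 313 and 330.2 CPM in Control d14 and 356 to 386 CPM in ExpOF d14 (median 370.3), with replicate 1 again above all overfed mice and the other controls below the lowest of them (log2 fold change 0.14 ± 0.062, adjusted p = 0.154). On d14+3 the ranges were 329 to 384 CPM in Control d14+3 (median 374) and 349 to 409 CPM in ExpOF d14+3 (median 379), for a log2 value of 0.057 ± 0.059, adjusted p = 0.802. Cadps2 (83.8 to 108 CPM) had 0.093 ± 0.062 on d14 and 0.038 ± 0.059 on d14+3.

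Of the transporters, Slc17a7 (chr7:45163949-45176142, plus strand) had 3.26, 8.69, 6.85, 30.9 and 25.7 CPM in Control d14 and 4.02 to 13.4 CPM in ExpOF d14 (median 9.43). Control replicates 5 and 6 stood well above the other 3, and all overfed mice lay below those 2 (log2 fold change −0.70 ± 0.54, adjusted p = 0.399). Those 2 mice also held thalamic markers at 567 and 545 CPM in sum, against 203 to 249 in the other 3, and with the thalamic sum as a covariate the log2 fold change was −0.13 (adjusted p = 0.588). Its values on d14+3 were 17.8 to 81.1 CPM in Control d14+3 (median 38.2) and 13.3 to 70.8 CPM in ExpOF d14+3 (median 30.03), for a log2 value of −0.32 ± 0.48, adjusted p = 0.857. Slc32a1 (chr2:158610767-158615748, plus strand) ranged on d14+3 from 106 to 134 CPM in Control d14+3 (median 124) and from 97.4 to 138 CPM in ExpOF d14+3 (median 117), with overlapping groups (log2 fold change −0.078 ± 0.076, adjusted p = 0.797), and a gene on the opposite strand shares 697 of its exonic bases. On d14 Slc32a1 had 115, 148, 135, 126 and 123 CPM in Control d14 and 116 to 138 CPM in ExpOF d14 (median 125), which overlapped throughout (−0.021 ± 0.08). Slc17a6 had log2 fold changes of 0.078 ± 0.062 on d14 and 0.0018 ± 0.059 on d14+3.

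**Figure D2:**
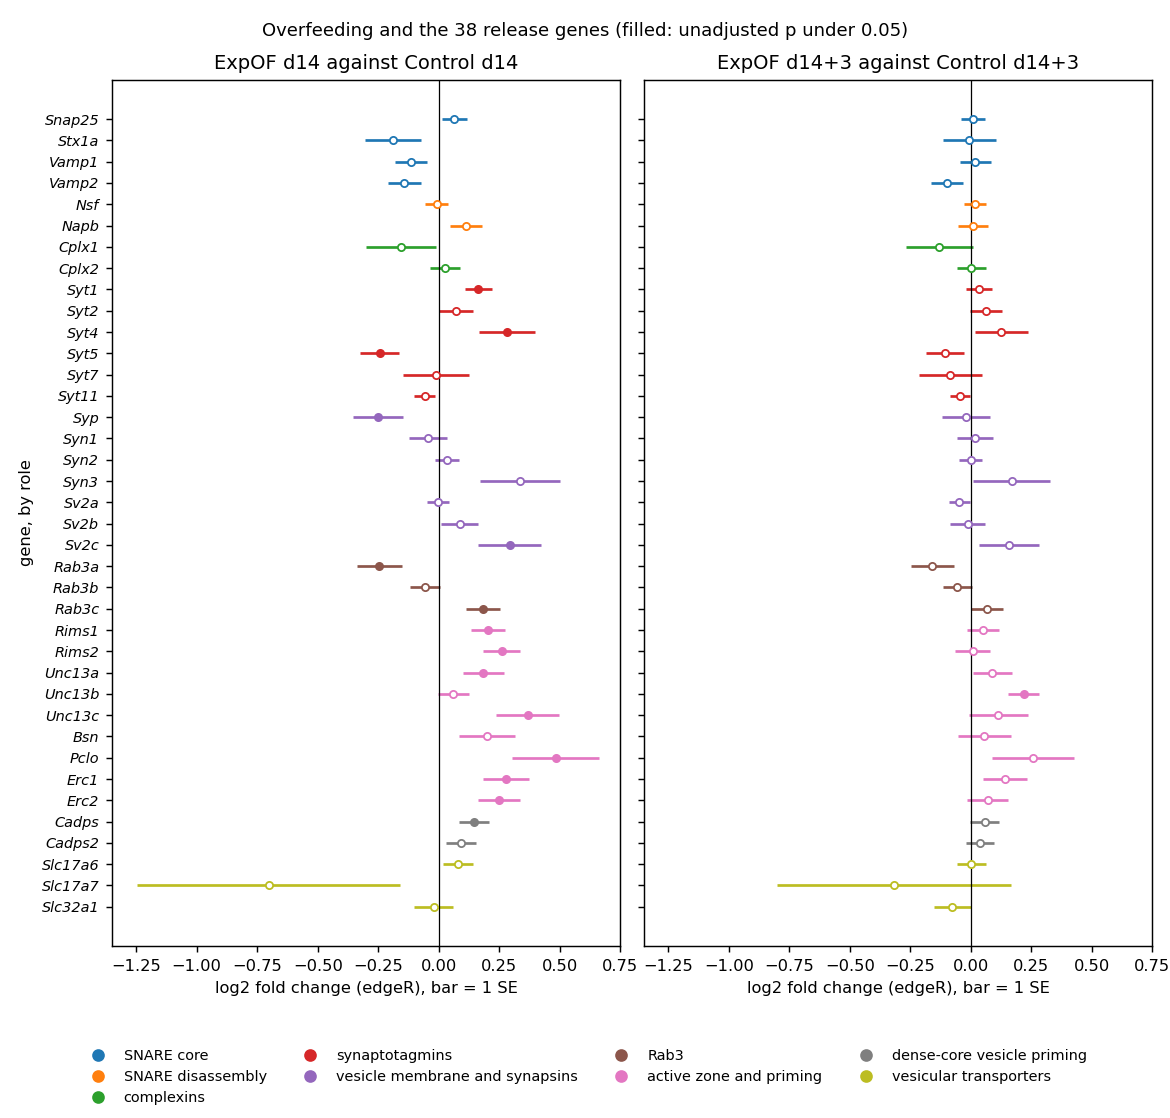
Log2 fold change of overfed against control mice for the 38 genes on d14 (left) and d14+3 (right), with bars of 1 SE derived from edgeR's F, coloured by role and filled where the unadjusted p was under 0.05. On d14 all 9 active zone genes lie right of 0 and Syt5, Syp and Rab3a are the filled points left of it. On d14+3 only Unc13b is filled.

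Gene length ordered these d14 values. Over all genes tested, the median log2 fold change on d14 ran from −0.206 in the shortest of 10 equal bins of genes by exonic length to 0.173 in the longest. The members were long, with a median exonic length of 7562.5 bases against 3787 for all genes tested, from 2189 bases for Cplx1 to 22746 for Unc13b. Across genes, which are not independent replicates, Spearman's rho between exonic length and the d14 log2 fold change was 0.711 for the 38 members and 0.412 for all 18992 genes. Within their own length bin, 26 of 38 members lay inside the middle 50% of all genes and 20 above the median. With the length trend of each library removed by offsets, the members' median was −0.002, 0 members were called, and 9 had an unadjusted p under 0.05, 4 higher and 5 lower, against 20% of all genes. On d14+3 the medians by length ran from −0.047 to 0.079 between the shortest and longest bin, and rho was 0.783 for the members and 0.249 for all genes.

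**Figure D3:**
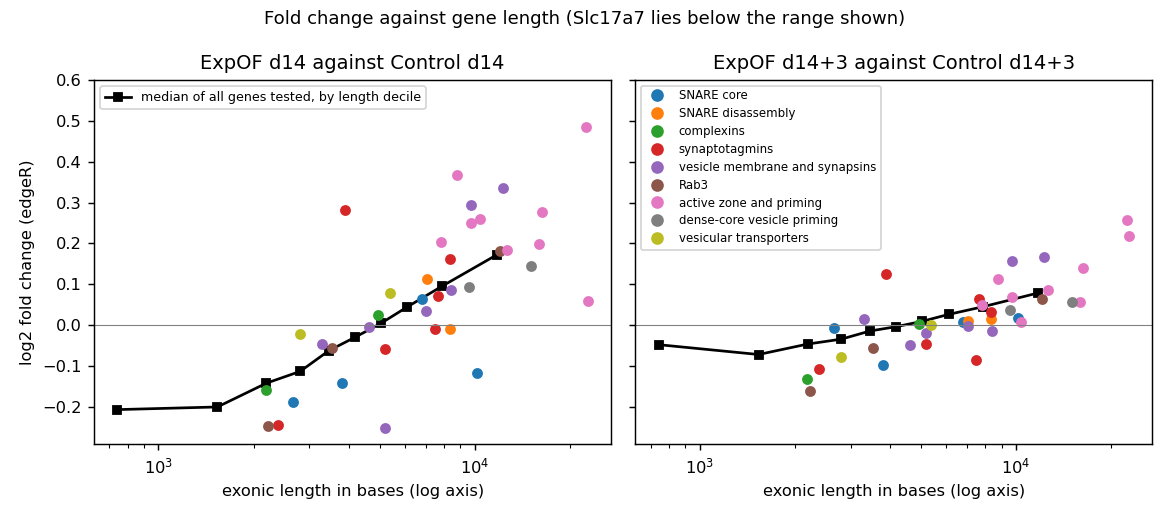
Log2 fold change by exonic length in bases (log axis) on d14 (left) and d14+3 (right), for 37 members coloured by role, and the median of all genes tested in each of 10 bins of length (black squares, at the median length). Slc17a7 lies below the axis at −0.70 and −0.32. The members climb with length alongside the squares, more steeply on d14.

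The d14 counts depended on single libraries and on the cohort. Without Control d14 replicate 1, 15 of 38 members were called, 12 of them higher in overfed mice, and so were 22% of all genes tested, 12% higher. In the July cohort alone 13 members had an unadjusted p under 0.05, 10 higher and 3 lower, against 18.7% of all genes, and in the September cohort, with 2 control and 3 overfed mice, 0, against 4.4%. The log2 fold change of Rims2 was 0.31 (July) and 0.18 (September), that of Syt5 −0.34 (July) and −0.093 (September), and that of Syp −0.28 (July) and −0.21 (September).

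On d14+3, after the end of overfeeding, edgeR called 0 of 38 members and 0% of all genes tested. DESeq2 called 0 members too, and 40 of 19027 genes in all. The median log2 fold change was 0.013 against 0.007 over all genes. A separate test of whether the effect of overfeeding differed between days also called 0 members and 0% of all genes in edgeR. In DESeq2 that test called 0 members and 0 of all genes. For Rims2 alone that difference reached an unadjusted p under 0.05 (log2 difference −0.25, unadjusted p = 0.0243, adjusted p = 0.903), against 4.42% of all genes.

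The comparison between the days was added after the values were seen. In control mice, 6 of 38 members were called between d14+3 and d14, all higher on d14+3, against 1.15% of all genes called and 0.953% called higher. At an unadjusted p under 0.05 there were 15 members, 14 higher and Syt5 lower, against 12.7% of all genes. In overfed mice 0 members and 0% of all genes were called, and 10 members had an unadjusted p under 0.05, all higher on d14+3, against 7.79% of all genes. DESeq2 called 8 members in control and 4 in overfed mice, all higher on d14+3, against 3.04% and 0.993% of all genes it tested. The control comparison shares its Control d14 mice with the overfeeding comparison on d14. Days were sampled within each cohort, but day and whatever differed at collection on that day cannot be told apart.

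The 6 called genes were Sv2b, Rims2, Syt1, Slc17a6, Rab3c and Syt7. Sv2b (chr7:75114894-75309262, minus strand), an SV2 isoform of glutamatergic terminals, had 93.9, 84.1, 89.4, 105 and 112 CPM in Control d14, 94.7 to 121 CPM in ExpOF d14 (median 98.5), 118 to 138 CPM in Control d14+3 (median 134) and 119 to 153 CPM in ExpOF d14+3 (median 128). Every Control d14+3 mouse lay above every Control d14 mouse, a fitted difference of 35.4% (0.44 ± 0.077 on the log2 scale, adjusted p = 0.00742), and in overfed mice the log2 difference was 0.34 ± 0.074 (adjusted p = 0.0679). Non-overlapping and higher were also Syt1 and Syn2, 3 of 38 members against 1.08% of all genes.

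Syt7 (chr19:10389090-10448444, plus strand) had 152, 144, 157, 221 and 205 CPM in Control d14, 144 to 193 CPM in ExpOF d14 (median 177), 212 to 311 CPM in Control d14+3 (median 277) and 177 to 326 CPM in ExpOF d14+3 (median 258). Its fitted control level was 51.6% higher on d14+3 (0.60 ± 0.14, adjusted p = 0.0278), although control replicate 5 on d14 lay above the lowest d14+3 mice, and in overfed mice the log2 difference was 0.53 ± 0.13 (adjusted p = 0.0973). The VGLUT2 gene Slc17a6 (chr7:51622006-51671119, plus strand) had 292, 259, 282, 291 and 342 CPM in Control d14, 289.9 to 349 CPM in ExpOF d14 (median 306), 329 to 378 CPM in Control d14+3 (median 364) and 336 to 384 CPM in ExpOF d14+3 (median 361). Of the controls on d14 only replicate 6 reached the d14+3 range, and the log2 difference was 0.29 ± 0.063 in control (adjusted p = 0.0198) and 0.22 ± 0.06 in overfed mice (adjusted p = 0.142).

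The other 3 called genes were Syt1, Rab3c and Rims2. Syt1, the main calcium sensor of fast release (chr10:108497650-109010975, minus strand), had 828, 678, 801, 787 and 757 CPM in Control d14, 792 to 898 CPM in ExpOF d14 (median 872), 865 to 1000.3 CPM in Control d14+3 (median 925) and 882 to 1067 CPM in ExpOF d14+3 (median 939). Its log2 difference was 0.27 ± 0.057 in control (adjusted p = 0.0181) and 0.14 ± 0.054 in overfed mice (adjusted p = 0.44). Rab3c (chr13:110054187-110280901, minus strand) had 704, 535, 599, 633 and 649.7 CPM in Control d14, 619 to 759 CPM in ExpOF d14 (median 712), 689 to 843 CPM in Control d14+3 (median 778) and 714 to 849.6 CPM in ExpOF d14+3 (median 831), with log2 differences of 0.31 ± 0.07 (adjusted p = 0.0265) and 0.19 ± 0.066 (adjusted p = 0.328). Rims2 ranged from 92.4 to 117 CPM in Control d14+3 (median 107) and from 94.6 to 118 CPM in ExpOF d14+3 (median 107), and its log2 differences from d14 were 0.39 ± 0.076 in control (adjusted p = 0.0137) and 0.14 ± 0.073 in overfed mice (adjusted p = 0.698). The test of the difference between those effects is the one given above, in which no member passed the threshold.

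Slc17a7 spread most. Its fitted level was 2.87-fold higher on d14+3 in control mice (1.52 ± 0.53 on the log2 scale, adjusted p = 0.203) and 3.74-fold higher in overfed mice (1.90 ± 0.53, adjusted p = 0.149), without passing the threshold in either. In overfed mice the lowest d14+3 mouse (13.3 CPM) lay below the highest d14 mouse (13.4 CPM). In control mice the days overlapped more widely. Control d14 replicates 5 and 6 (30.9 and 25.7 CPM) both lay above Control d14+3 replicates 5 and 6 (17.8 and 25.5 CPM). Within cohorts, the control differences had the same direction and no adjusted p under 0.05 for any member: Sv2b 0.41 (July) and 0.47 (September), Syt7 0.54 (July) and 0.64 (September) and Slc17a7 1.35 (July) and 1.61 (September). The count of 6 called members was 1 without Control d14 replicate 2 or without Control d14+3 replicate 4, 3 without Control d14 replicate 3, 2 without Control d14+3 replicate 2 and 0 with these groups fitted alone. Over all genes the count fell as well, from 218 to 24, 47, 58, 51 and 0 in these fits, in the same order.

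**Figure D4:**
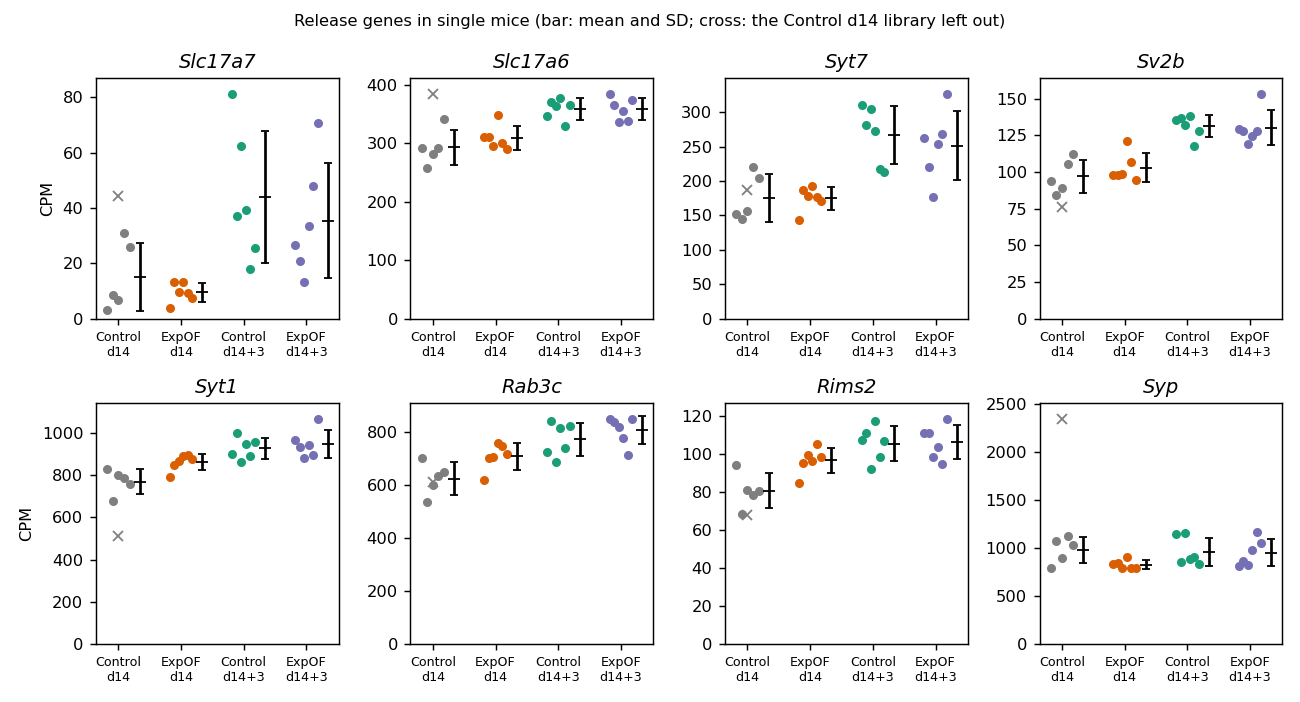
CPM of 8 members in every mouse (points) by group, with mean and SD (bars) over 5 or 6 mice, and the Control d14 library left out as a cross. Slc17a7, Slc17a6, Syt7 and Sv2b have higher means in both d14+3 groups than in the d14 groups, with single mice of the days overlapping in each. Syp shows the lower level of ExpOF d14 and the far value of the library left out.

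The day difference ran with markers of the thalamus, the region above the hypothalamus. The summed level of 8 thalamic markers, none at 0 in any library, was 203 to 567 CPM in Control d14 (median 249), 216 to 447 in ExpOF d14 (median 301), 481 to 989 in Control d14+3 (median 744) and 444 to 946 in ExpOF d14+3 (median 656). All 8 had an unadjusted p under 0.05 and were higher on d14+3 in both control and overfed mice, and 3 of them were called in control mice. Of the 14 hypothalamic markers 2 were called lower on d14+3 in control mice. Markers of cortex and hippocampus, where VGLUT1 neurons are common, stayed low, between 16.8 and 24.8 CPM in sum over all groups.

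Each of the 38 members was compared with the thalamic sum over the 23 mice on the log2 scale, in 38 relations adjusted together. Slc17a7 had Pearson's r = 0.978 and Spearman's rho = 0.997 (two-sided permutation test for each, p = 1e-05, the smallest that 100000 permutations can give; adjusted p = 6.33e-05). Without the 2 mice farthest from the median marker level r was 0.977; it was 0.975 in the July cohort, 0.981 in the September cohort, 0.943 among d14 mice and 0.984 among d14+3 mice. Only 0.079% of all genes tested had an r as high. For Syt7 r was 0.962 and rho 0.968 (permutation p = 1e-05, adjusted p = 6.33e-05), with 0.955 without the 2 farthest mice, 0.958 in July, 0.974 in September, 0.926 among d14 and 0.946 among d14+3 mice. Sv2b followed with r = 0.914 and rho = 0.89 (permutation p = 1e-05, adjusted p = 6.33e-05), with 0.911 without the 2 farthest mice, 0.922 in July, 0.914 in September, and within days 0.759 and 0.736.

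Within each day r was at least 0.736 for these 3 genes, and lower than over all mice for the other called members. For Syt1 r over all mice was 0.592 but 0.0101 among d14 and 0.212 among d14+3 mice, for Rab3c 0.538, 0.189 and −0.381, and for Rims2 0.501, −0.0933 and 0.115. Slc17a6 lay between, with 0.805, 0.565 and 0.272. Cplx1, called in neither day comparison, had r = 0.858 and rho = 0.896 (permutation p = 1e-05, adjusted p = 6.33e-05 for r), with 0.818 without the 2 farthest mice, 0.851 in July, 0.855 in September, 0.736 among d14 and 0.879 among d14+3 mice. Over the 38 members 25 had r above 0 (65.8%, against 48.1% of all genes), the median was 0.453 against −0.021 over all genes, and 20 had an adjusted permutation p under 0.05, 18 of them positive. The smallest absolute r among those 20 was 0.498, a size that 17.5% of all genes reached, 10.1% with a positive r. The 2 negative ones were Sv2c (r = −0.57) and Cadps2 (r = −0.681). These relations pool both days, and the marker sum itself differed by day. They therefore cannot separate a day difference from a relation within days. Among the 18 positive ones, r within a day was below 0 for Snap25 and Rab3c on d14+3 and for Rims2 on d14.

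With the log2 thalamic sum added to the fit as a covariate, chosen after the values were seen, 0 members were called between the days in control mice, and 0 of all genes. At an unadjusted p under 0.05 stood 6014 of 18992 genes in that comparison, against 2419 without the covariate. The log2 difference of Slc17a7 became −0.27 in control and −0.30 in overfed mice, that of Syt7 0.081 and −0.018, and that of Sv2b 0.20 and 0.094. Those of Rims2 (0.38), Rab3c (0.30) and Syt1 (0.23) in control mice stayed near their values without it (adjusted p = 0.0552, 0.0566 and 0.0588), and that of Slc17a6 was 0.17 (adjusted p = 0.116) in control and 0.092 in overfed mice. How much thalamic tissue each sample held was not measured.

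**Figure D5:**
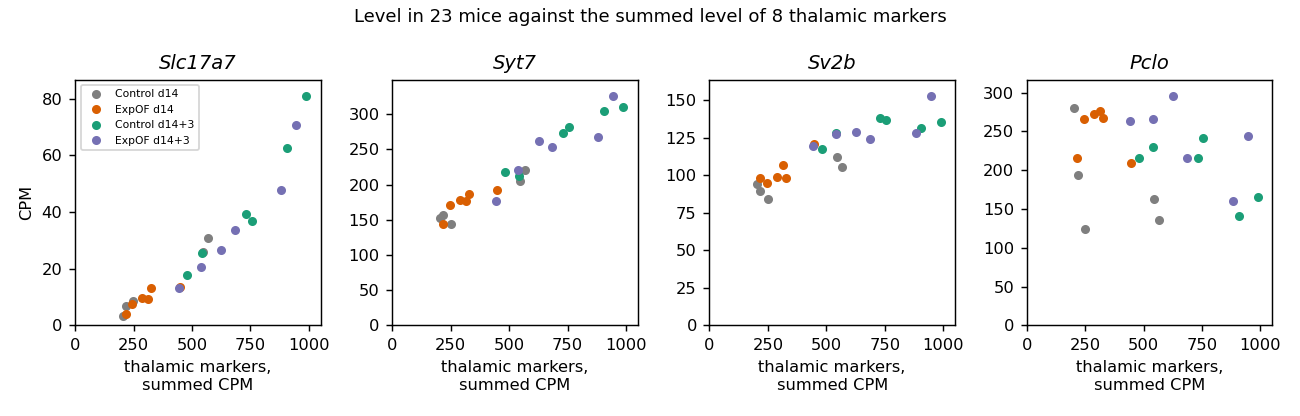
CPM of Slc17a7, Syt7, Sv2b and Pclo in 23 mice against the summed CPM of 8 thalamic markers, coloured by group. The first 3 climb with the marker level across and within groups (r = 0.978, 0.962 and 0.914 on the log2 scale), and Pclo does not (r = −0.258).

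The rest of the presynaptic pathway was counted in 4 further lists. On d14, 0 genes were called in any of them, and their counts at an unadjusted p under 0.05 stand against 26.7% of all genes, 13.1% higher and 13.6% lower, with a median log2 fold change of −0.021. Of 52 other release genes tested, 15 had an unadjusted p under 0.05, 12 higher and 3 lower, with a median log2 fold change of 0.033. The 29 genes of vesicle endocytosis and recycling gave 14, 10 higher and 4 lower, with a median of −0.011. The 17 genes of the vesicular proton pump, which fuels transmitter uptake, gave 9, 1 higher and 8 lower, with a median of −0.134. The 10 presynaptic calcium channel genes gave 3, all higher, with a median of 0.137.

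The smallest p-values in these lists belonged to the following genes, none of which passed the threshold. Ppfia2, a liprin scaffold of the active zone, averaged 67.2 ± 6.03 CPM (SD, n = 5) in Control d14 and 84.0 ± 4.19 (SD, n = 6) in ExpOF d14 (log2 fold change 0.32 ± 0.081, adjusted p = 0.135). Mctp1, a calcium-binding membrane protein, had a log2 fold change of 0.51 ± 0.14. Snap91 and Eps15, both of clathrin-mediated endocytosis, had 0.15 ± 0.047 and 0.24 ± 0.076. The pump subunits Atp6v1f and Atp6v1e1 had −0.35 ± 0.12 and −0.26 ± 0.089, and the calcium channel beta subunits Cacnb4 and Cacnb2 had 0.42 ± 0.14 and 0.14 ± 0.052. On d14+3 the 4 lists held 1 gene at an unadjusted p under 0.05, a proton pump gene that lay lower, against 7.11% of all genes. They held 0 called genes, against 0% of all genes.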

How the data were processed

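Hypothalamic RNA of 24 mice was analysed from gene counts. Per the paper's methods, poly-A selected, stranded libraries were aligned with STAR to mm10 with GENCODE transcripts and summarized with featureCounts 1.6.4; the strand setting is not given in the sources used here. The authors deposited raw counts per gene without normalization, with each gene's position and exonic length. Symbols came from GENCODE vM21, in which 37 of the 38 members have the same exonic length. The members and all gene lists were chosen with earlier results of these data known, and the day comparisons and the thalamic covariate were added after values were seen.

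The deposited counts were fitted in edgeR 4.0.16 (R 4.3.3) with TMM factors and all 4 groups as 1 factor, without covariates. Genes had to pass filterByExpr, set to a count of at least 10 and a total of at least 15. The robust quasi-likelihood F-test was used, with Benjamini-Hochberg adjustment over all genes tested, and a gene with an adjusted p under 0.05 is termed called. CPM used TMM-scaled totals. A prior count of 2 was used for log2 CPM, as in the length trend and the check of replicate pairs. The fold changes kept edgeR's default prior count. Control d14 replicate 4 was left out. It was taken to be the mouse the study removed, because leaving it out best matched the published mean level of each gene over all groups, in 1998 genes. Single members were compared by two-sided exact permutation tests of mean CPM, which like the model measure the spread between mice. Alternatives were DESeq2 1.42.0 (Wald test), its size factors, 2 other filters, all 24 libraries, only the groups compared, each cohort alone, covariates for cohort and extraction round or RNA integrity, a replicate block, offsets removing a length trend (spline with 5 degrees of freedom) and each library left out. In simulated d14 data over 18992 genes with 200 changed at a log2 fold of 1, edgeR called all 200 and 11 others, DESeq2 200 and 21 others. That simulation gave every gene the same dispersion. It does not show how often smaller changes, such as those of all members on d14, would be called. In the smallest library 1 CPM was about 8.9 counts, so counting error limits Slc17a7 and Syn3 most. No column was left without a sample.

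Members described in full were, in each of the 9 role groups, the gene with the smallest unadjusted p for overfeeding on d14 and that on d14+3, and any called member. Pclo, Syt4, Rims2 in the interaction and, in the day comparisons, Slc17a7 were named after their values were seen. From each of the 4 pathway lists the 2 genes with the smallest p on d14 were named. Of the 15 marker lists, those of thalamus, hypothalamus, cortex with hippocampus and choroid plexus are given where they touch a member. Those in which the library left out was the highest or lowest of all are given with it.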

Additional observations from a re-analysis of the deposited data

Results flagged for a closer look

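In 6 of the 152 groups of member values examined, a single mouse stood apart from the other mice of its group by Dixon's criterion, which chance alone meets in about 1 in 20 groups. Snap25 was 1340 CPM in Control d14+3 replicate 1, against 1463 to 1525 in the other 5 mice. Syn2 was 512.1 CPM in ExpOF d14 replicate 4, against 461.8 to 479.9. Sv2b was 153.0 CPM in ExpOF d14+3 replicate 6, against 119.3 to 129.1, and Sv2c was 63.33 CPM in ExpOF d14+3 replicate 5, against 87.13 to 101.1. Rims1 was 94.92 CPM in ExpOF d14 replicate 1, against 105.7 to 110.1, and Slc17a6 was 349.1 CPM in ExpOF d14 replicate 4, against 289.9 to 310.9.

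The Control d14 library that was left out, replicate 4, exceeded all 23 other libraries for 10 of 38 members and lay below all of them for 20. Syp was 2342 CPM in it, against 785.6 to 1162 in the others, Vamp2 1654 against 764.7 to 1048, and Rab3a 1187 against 448.8 to 688.3. Cplx1 was 639.3 CPM against 296.9 to 626.9, Slc17a6 384.2 against 258.7 to 383.8, Syt5 226.5 against 124.9 to 190.9, and Slc32a1 150.0 against 97.37 to 147.8. Cplx2 was 623.4 CPM, Syt11 1543 and Syn1 538.8 CPM in it, each above the ranges given with the comparisons. That library also had the highest summed level of the choroid plexus markers, 4536 CPM, among all 24 libraries. It was likewise highest for markers of neurons (6013 CPM), hypothalamus (2694), striatum (325), endothelium (359), ependyma (149) and blood (699). It was lowest for those of astrocytes with tanycytes (1727 CPM) and of oligodendrocyte precursors (149). The part of these differences in the member values was not tested.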

How the results depend on the processing

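With overfeeding, 0 members were called on d14+3 and in the interaction under all alternatives. On d14 the count ranged from 0 to 15 as single libraries were left out. It was 15 only without Control d14 replicate 1, where 22% of all genes tested were called. With both tools and all other alternatives the count was 0. The members' d14 median was −0.0021 with the length trend removed and 0.0305 to 0.0806 with single libraries left out. Their d14+3 median, 0.013, was −0.021 with the length trend removed, −0.014 in the September cohort and −0.013 without ExpOF d14+3 replicate 6. Between days in control mice the count of 6 was 0 with only the groups compared, in the July cohort, in the September cohort and with the thalamic marker covariate, 1 to 6 with single libraries left out, and 8 with DESeq2. Over all genes the count of 218 was likewise 0 where the members' was 0, 24 to 313 with single libraries left out, and 531 with DESeq2. In overfed mice the count of 0 became 4 with DESeq2, 2 with only the groups compared, 1 with cohort and extraction round as covariates, and 0 to 2 with single libraries left out (2 without ExpOF d14 replicate 4 or ExpOF d14+3 replicate 3). In the fits that called members, the count over all genes was 189, 123, 78, 87 and 157, in the same order, against 0 in the main fit.

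Directions of single members turned in these cases, none past the threshold. With the length trend removed, the log2 fold change was 0.0081 for Cplx1 and −0.074 for Cadps on d14, and −0.031 for Nsf and −0.036 for Cadps on d14+3. With single libraries left out, Cplx1 on d14 ranged from −0.23 to 0.0017 (without Control d14 replicate 5) and Nsf on d14+3 from −0.018 (without ExpOF d14+3 replicate 6) to 0.038, and Nsf was −0.0051 in the September cohort. With the thalamic covariate, Slc17a7 was −0.13 on d14 (−0.70 without it), and turned to −0.27 between days in control and −0.30 in overfed mice, and Syt7 −0.018 in overfed mice. The cause was not tested. Replicate numbers did not pair the mice: over 33 same-numbered pairs the correlation of deviations ran from −0.255 to 0.364, and 1 of 23 libraries correlated best with its own number. With the replicate block the counts on d14, on d14+3, in the interaction and between days in overfed mice stayed 0, and between days in control mice 1 member was called, among 33 genes in all.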
